A study of Mus musculus with 8 samples.

Results

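Ist1, Bscl2, Osbpl1a, Pex7, Gsap and Adgrl1 are 6 mouse genes with roles in membrane remodelling, lipid handling, organelle import and signalling at membranes. They were picked because an alternative splicing event of each differed in inclusion by more than 25 percentage points between sample groups in 1 stage of male germ cell development. The stage was taken as spermatocytes for Ist1, Bscl2, Pex7 and Adgrl1 and as round spermatids for Gsap and Osbpl1a. The other stage of each gene is called the stage that the rule did not use. That division is not strict. An intron of Gsap also passed 25 points in spermatocytes (-48.2), as did an exon of Pex7 in round spermatids (51.9). So did events of few reads in Gsap and Adgrl1. All events listed under their symbols were taken, which gave 152 of 119019 events, from 6 of 12583 genes.

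The study sequenced polyadenylated RNA of FACS-sorted, Hoechst-stained cells of adult C57BL/6 mice, comparing a Larp7 conditional knock-out with wild type. Spermatocytes are germ cells in meiosis and round spermatids are the haploid cells that follow. There were 4 groups of 2 libraries: knock-out round spermatids, knock-out spermatocytes, wild-type round spermatids and wild-type spermatocytes. The Cre line that deletes Larp7 is not given in the sources used here, and although the labels speak of biological replicates, they do not tie a library to its own animal. P-values therefore measure the spread between these libraries, which may be technical.

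The tables number their 2 sample groups and name no genotype for them, so a difference below is the value of the first sample group minus that of the second, with no genotype direction. Larp7 itself, which binds and stabilises 7SK RNA, separated the groups. A 125-nt exon of it (chromosome 3, 127544154 to 127544278, mm10) had an inclusion of 0.279% and 0.598% in the first round spermatid group, against 100% and 100% in the second. In spermatocytes its inclusion was 2.4% and 0.951% in the first group, against 100% and 100% in the second. Summed event reads ran from 49904607 to 93265932 per round spermatid library and from 51786242 to 102000320 per spermatocyte library. Meiotic markers (9 of 10 measured) summed to 767 to 916 CPM (reads scaled to the same library sum) in round spermatids and 2260 to 3890 CPM in spermatocytes, while round spermatid markers (5 of 11 measured) summed to 1410 to 1780 CPM and 347 to 459 CPM in the same order of stages.

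The members serve different parts of the membrane system. ESCRT-III proteins form filaments that cut membrane necks in multivesicular bodies and at the end of cell division, and Ist1 is a member of that family that binds the disassembly enzyme Vps4. Seipin, the product of Bscl2, sits in the endoplasmic reticulum where lipid droplets bud, and male mice without it are infertile. Osbpl1a encodes a sterol-binding protein of late endosomes with a long and a short form, and Pex7 is the receptor that carries proteins with the second type of peroxisomal targeting signal into peroxisomes. Gsap is the gamma-secretase activating protein, described for its effect on the cleavage of the amyloid precursor, and Adgrl1 is latrophilin-1, an adhesion G protein-coupled receptor that binds teneurins and FLRT proteins.

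Inclusion is the share of the longer or first form among both forms of an event, after division of reads by form length. The tested event with the widest difference in the stage used for picking is called the lead event of each gene, where tested means a mean of at least 10 reads per library and a read of each form. In the picking stages 6 untested events, 4 of Adgrl1 and 1 each of Ist1 and Bscl2, also passed 25 points, on means of 0.75 to 8.5 reads per library. The widest, a 15-nt exon of Adgrl1, differed by -100 points on a mean of 0.75 reads. Of the 6 lead events 3 were retained introns, 1 was a cassette exon, 1 an alternative 5 prime splice site and 1 a pair classed as mutually exclusive exons. In the picking stage 5 of the 6 were included less in the first sample group and 1, in Pex7, was included more. These differences were the reason for the choice and are given without a test.

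**Figure D1:**
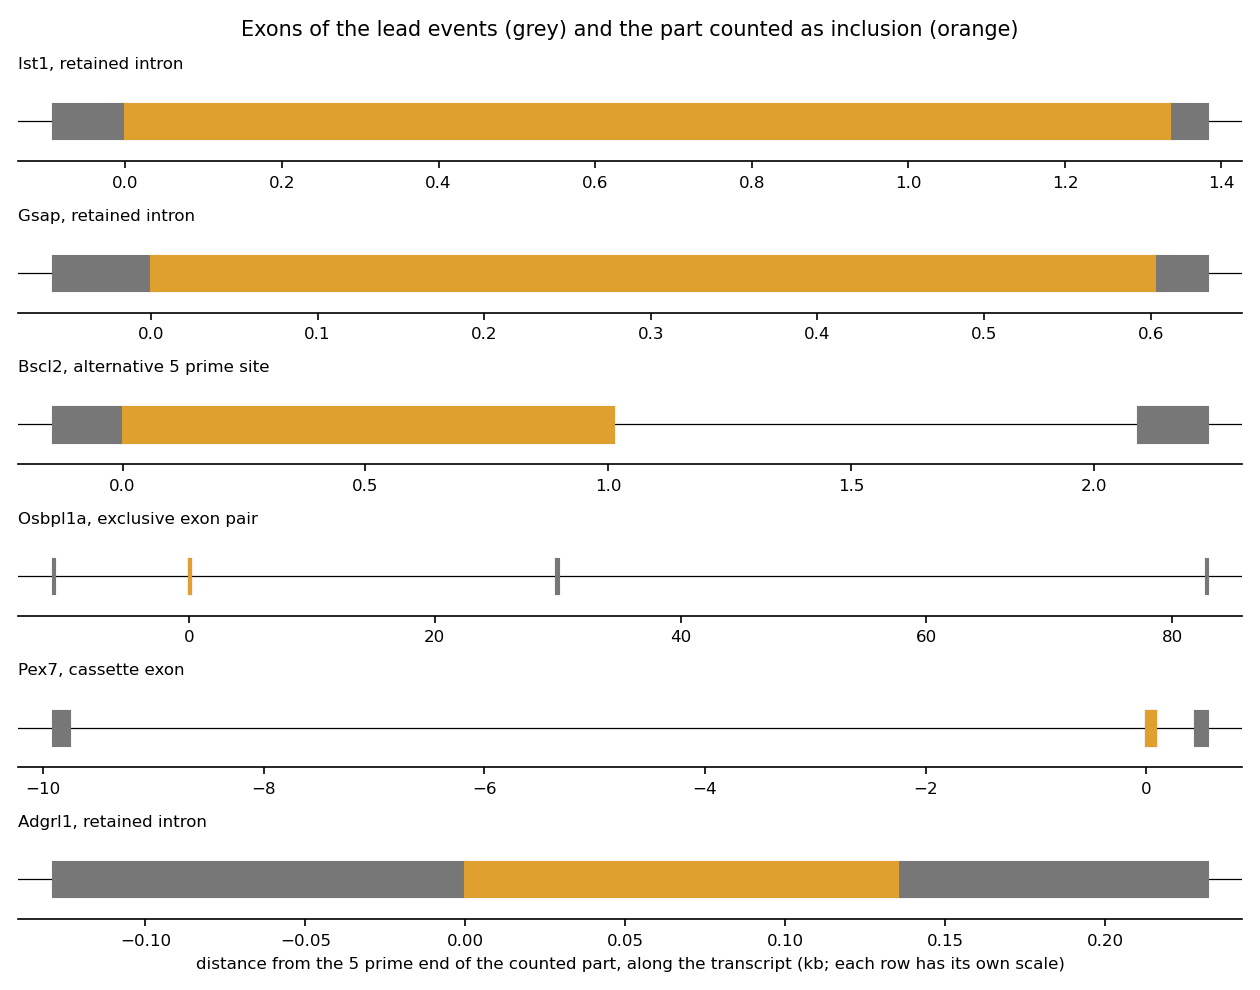
Exons of the 6 lead events (grey) and the part counted as inclusion (orange), along the transcript, with distance in kb from the 5 prime end of that part and a separate scale for each gene. The counted part ranges from 78 nt in Pex7 to 1333 nt in Ist1, and the exons of the Osbpl1a event are spread over the longest stretch.

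In Ist1 the lead event was retention of a 1333-nt intron on the minus strand of chromosome 8 (109675425 to 109676757, mm10), between a 93-nt exon and a 49-nt exon and 16.5 kb into a gene of 22.0 kb. In spermatocytes, the picking stage, its retention was 34.3% and 35.4% in the first sample group, against 64.1% and 60.9% in the second, a difference of -27.6 points. The first group had 178 and 290 spliced reads, against 97 and 93 in the second, and 925 and 1579 reads of the retained form, against 1725 and 1438. The groups did not overlap, and the 95% exact binomial (Clopper-Pearson) intervals, which cover counting error only, ran from 30.8% to 38.4% over the first group and from 55.8% to 68.9% over the second. A 160-nt cassette exon that lies inside the intron (109675643 to 109675802) had an inclusion of 13.8% and 15.7% in the first group against 23.6% and 30.1% in the second, and its skipping reads are the spliced reads of the intron. An untested Ist1 event, the 93-nt exon with a mean of 3.75 reads, lay at -32.5 points. The next widest tested Ist1 event lay outside the threshold at -17.6 points. It is a pair classed as mutually exclusive, and the 84-nt exon counted as inclusion (109679424 to 109679507) had 60.1% and 60.6% against 77.7% and 78.2%. Its other form, with 134 and 233 reads against 71 and 76, joins the same 93-nt exon to the 49-nt exon. That is the spliced junction of the intron, so the 2 events are not separate measures. Of the 36 tested Ist1 events in spermatocytes, 31 differed by under 5 points.

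In round spermatids, which had no part in picking Ist1, retention of the same intron was 37.7% and 41.3% in the first sample group, against 48.4% and 37.6% in the second. The groups overlapped, and limma gave a difference of -0.22 in log2 odds (SE 0.32, adjusted p = 0.8869). All 14 tested Ist1 events differed by under 5 points in that stage.

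In Bscl2 the lead event was the choice of 5 prime splice site that adds 1010 nt to an exon on the plus strand of chromosome 19 (8845315 to 8846324), 7.8 kb into a gene of 11.2 kb. In spermatocytes, the picking stage, the longer form made up 65.1% and 60.0% in the first sample group, against 92.2% and 95.7% in the second, a difference of -31.4 points. The short form rests on few reads, 35 and 86 in the first group against 6 and 3 in the second, so the groups are separated by the reads of a rare junction. The added stretch is an intron followed by a 135-nt exon (8846190 to 8846324), and the same 35, 86, 6 and 3 reads are the skipping reads of that exon. Measured as a cassette exon its inclusion was 97.4% and 97.0% in the first group against 99.6% and 99.8% in the second, a difference of -2.5 points. The lead event sets those junction reads against reads of the long form alone, and the cassette event sets them against all reads spliced into the exon. The next widest tested Bscl2 event lay at -3.3 points.

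In round spermatids the longer Bscl2 form made up 56.7% and 41.2% in the first sample group, against 84.8% and 42.7% in the second. One library of the second group stood apart from the other 3, with an interval of 60.0% to 97.9% from 87 and 2 reads of the 2 forms. The limma difference was -1.22 in log2 odds (SE 0.75, adjusted p = 0.8869).

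In Osbpl1a the lead event was a pair of exons, classed as mutually exclusive, on the minus strand of chromosome 18. The exon counted as inclusion has 107 nt (12871078 to 12871184) and lies 70.7 kb into a gene of 188.0 kb. The other has 163 nt (12841184 to 12841346). In round spermatids, the picking stage, inclusion was 48.6% and 61.5% in the first sample group, against 83.5% and 87.5% in the second, a difference of -30.4 points. The groups did not overlap. The 107-nt form had 45 and 80 reads in the first group against 112 and 109 in the second, and the 163-nt form had 58 and 61 against 27 and 19. The 2 exons do not exclude each other in all Osbpl1a RNA. Between the same upstream exon and the 163-nt exon, the 107-nt exon had 429 and 528 inclusion reads against 613 and 438. Its skipping reads there were 1 and 0 against 1 and 1. The lead event compares 2 forms that each lack 1 of the exons and leaves out the form that holds both.

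The same Osbpl1a exon pair stands in 3 further round spermatid events with other neighbouring exons, and their differences had both signs. Joined to another upstream exon, the pair gave 85.4% and 82.9% in the first sample group, against 89.1% and 91.6% in the second (-6.2 points). With another downstream exon it was 26.3% and 32.1% against 38.7% and 44.8% (-12.5 points). With both neighbours changed it was 58.8% and 51.6% against 49.0% and 52.3% (4.6 points), and the groups overlapped. The lead event is not in the spermatocyte table. The pair with the other upstream exon alone is, at 82.4% and 83.3% in the first group against 85.7% and 87.5% in the second, and limma gave -0.41 in log2 odds (SE 0.31, adjusted p = 0.8435). The pair with both neighbours changed had 57.9% and 58.0% in the first spermatocyte group against 57.0% and 60.6% in the second (-0.05 in log2 odds, SE 0.23, limma adjusted p = 0.9222). The next widest tested Osbpl1a event in round spermatids lay at -23.3 points, and 1 first-group library had no read of it.

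In Pex7 the lead event was a 78-nt cassette exon on the minus strand of chromosome 10 (19894725 to 19894802), 12.9 kb into a gene of 47.6 kb. In spermatocytes, the picking stage, its inclusion was 62.1% and 61.4% in the first sample group, against 24.3% and 39.6% in the second, a difference of 29.8 points. It is the only lead event of the 6 that was higher in the first group. There were 80 and 131 inclusion reads in the first group against 25 and 29 in the second, and 32 and 54 skipping reads against 51 and 29. The other Pex7 event, a 107-nt exon, lay between 99.6% and 100% in all 4 spermatocyte libraries.

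In round spermatids inclusion of the Pex7 exon was 45.1% and 90.8% in the first sample group, against 14.1% and 18.0% in the second. The first group had 5 and 15 inclusion reads and 4 and 1 skipping reads, and the second had 1 and 1 inclusion reads and 4 and 3 skipping reads. The mean of 8.5 reads per library was under the minimum of 10, so the event was not tested here, and with no read minimum limma gave an adjusted p of 0.8608. The authors' deposited table gives it an FDR of 0.04378.

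In Gsap the lead event was retention of a 602-nt intron on the plus strand of chromosome 5 (21270615 to 21271216), 94.6 kb into a gene of 115.7 kb. In round spermatids, the picking stage, its retention was 27.0% and 28.9% in the first sample group, against 68.5% and 67.1% in the second, a difference of -39.9 points. The retained form had 93 and 170 reads in the first group against 318 and 288 in the second, and the spliced form had 50 and 83 against 29 and 28. The retained form had fewer and the spliced form more reads in both first-group libraries than in either second-group library. The next widest Gsap event was a 96-nt exon at -11.2 points, with 81.3% and 79.3% against 91.2% and 91.8%.

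In spermatocytes Gsap had few reads. Retention of the intron was 24.8% and 33.2% in the first sample group, against 100% and 54.3% in the second, from a mean of 10.5 reads per library. The difference, -48.2 points, was wider than in round spermatids and also passed 25 points. The groups did not overlap and lay in the same order as in round spermatids, but limma gave -1.91 in log2 odds with an SE of 1.40 (adjusted p = 0.8435). With 6 to 12 inclusion and 0 to 2 skipping reads, the intervals of the second group ran from 18.9% to 100%.

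In Adgrl1 the lead event was retention of a 135-nt intron on the plus strand of chromosome 8 (83937326 to 83937460), 37.2 kb into a gene of 41.9 kb. In spermatocytes, the picking stage, retention was 21.5% and 34.9% in the first sample group, against 81.3% and 72.4% in the second, a difference of -48.6 points and the widest of the 6. The retained form had 45 and 46 reads in the first group against 58 and 60 in the second, whereas the spliced form had 86 and 45 against 7 and 12. Spliced reads differed more between the groups than retained reads did. The next widest tested event lay at -7.4 points.

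In round spermatids retention of the Adgrl1 intron was 47.6% and 50.3% in the first sample group, against 55.9% and 39.9% in the second. The groups overlapped, and limma gave 0.11 in log2 odds (SE 0.56, adjusted p = 0.9631).

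**Figure D2:**
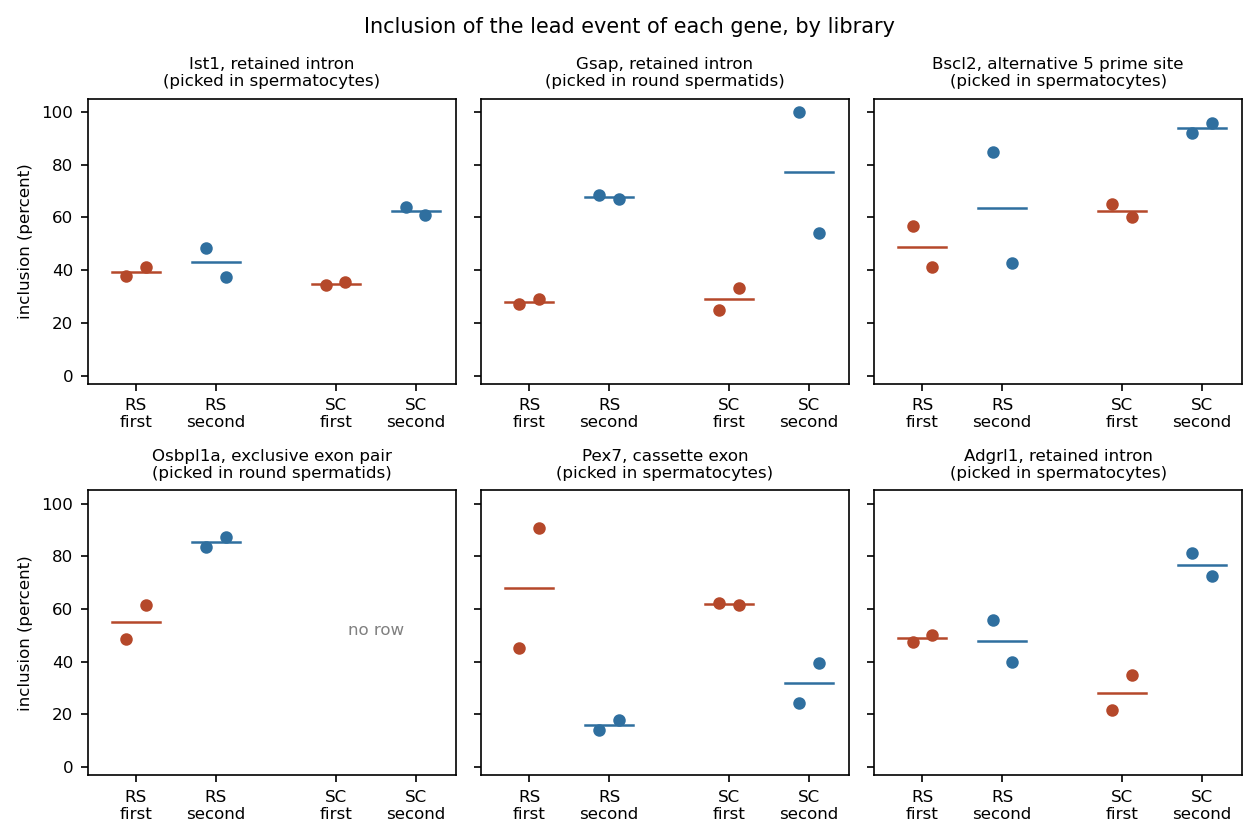
Inclusion in percent of the lead event of each gene in each library (points) with the mean of the 2 libraries of a sample group (lines), round spermatids (RS) left of spermatocytes (SC). In the picking stage the first and second sample group do not overlap in any of the 6 panels; in the other stage they overlap in Ist1, Bscl2 and Adgrl1, the Pex7 points rest on few reads, and the Osbpl1a event is not in the spermatocyte table.

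The 6 lead events are a small share of a wider set. Tested events past 25 points numbered 626 of 61122 in spermatocytes (1.02%) and 460 of 48060 in round spermatids (0.957%). Sample groups that did not overlap were common, at 25.1% of tested round spermatid events and 30.7% of tested spermatocyte events, and the rule used the contrast in which the 6 lead events separate. The counted part had a length divisible by 3 in 2 of the 6, Pex7 and Adgrl1. This is a count of lengths only, as 3 of the 6 are retained introns and the reading frame was not examined.

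The stage that the rule did not use held 37 tested member events in round spermatids and 17 in spermatocytes. Among the 17 is the Gsap intron, which passed 25 points in that stage too. Limma called none of the 37, against 0.027% of all tested round spermatid events, and none of the 17, against 0.00327% of all tested spermatocyte events. None of either set had an unadjusted p under 0.05, where 3.18% and 5.02% of all tested events did, and the quasi-binomial test also called 0 in each. Over all genes the fit called 13 events in round spermatids and 2 in spermatocytes. In the authors' deposited tables, 1 of 42 member events of round spermatids, the Pex7 exon, had an FDR under 0.05 (2.59% of all events) and 0 of 19 in spermatocytes did (4.96%).

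Some of the marker sets lay apart between the sample groups, in both stages, and others overlapped. In spermatocytes, spermatogonial markers (3 of 10 measured) summed to 10.9 to 57.3 CPM in the first sample group and 2.79 to 4.24 CPM in the second, and Sertoli cell markers (3 of 8 measured) to 143 to 214 CPM and 43.4 to 74.1 CPM. Meiotic markers summed to 3170 to 3890 CPM in the first group and 2260 to 2550 CPM in the second, and markers of elongating spermatids (5 of 7 measured) to 2320 to 2740 CPM and 3140 to 3480 CPM. In round spermatids Sertoli cell markers summed to 69.4 to 93.4 CPM in the first group and 44.5 to 56.3 CPM in the second, peritubular markers (2 of 4 measured) to 18.3 to 23.0 CPM and 15.0 to 15.4 CPM, and immune markers (3 of 5 measured) to 2.69 to 3.23 CPM and 2.25 to 2.41 CPM. Markers of elongating spermatids summed to 10600 to 13300 CPM in the first group and 13800 to 17400 CPM in the second, and round spermatid markers to 1410 to 1690 CPM and 1740 to 1780 CPM. Spermatogonial and meiotic markers overlapped between the round spermatid groups, and 0 of 5 Leydig cell markers were measured. Between the spermatocyte groups peritubular, immune and round spermatid markers overlapped. Over all genes, limma on event reads called 4.08% between the spermatocyte groups and 0.0546% between the round spermatid groups. The marker sums are given without a test. The part of these markers in the differences between sample groups was not tested.

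The stages were compared next, as the mean of both sample groups of round spermatids minus that of spermatocytes. Markers of elongating spermatids also moved with the stage, at 10600 to 17400 CPM in round spermatids and 2320 to 3480 CPM in spermatocytes, as did immune markers, at 2.25 to 3.23 CPM and 0.0997 to 1.09 CPM, and their part in the stage differences was not tested. Of 44 member events tested, 2 were called, or 4.55%, against 8.08% of all tested events (4.01% higher and 4.07% lower in round spermatids). Both were introns of Bscl2 with a lower share of the retained form in round spermatids. The first, of 875 nt (chromosome 19, 8845315 to 8846189), was retained at 0.744%, 0.505%, 0.511% and 0.451% in round spermatids, against 2.88%, 2.70%, 2.59% and 2.39% in spermatocytes. The stages did not overlap and the difference was -2.33 in log2 odds (SE 0.18, limma adjusted p = 4.918e-09). This intron is the first portion of the lead Bscl2 event, so reads of the 2 events cover the same stretch and are not separate measures. The inclusion of the lead event is a share of its 2 forms, not of all Bscl2 RNA.

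The second Bscl2 intron, of 180 nt (8847734 to 8847913), was retained at 1.74%, 1.85%, 1.97% and 2.53% in round spermatids, against 3.15%, 3.90%, 3.96% and 4.61% in spermatocytes. The difference was -0.98 in log2 odds (SE 0.17, limma adjusted p = 0.000448), and in the second sample groups alone its adjusted p was 0.1357. Among the 7 member introns tested the 2 called are 28.6%, near the 26.6% of all tested introns that were called, 23.9% being lower in round spermatids. An intron of Osbpl1a (92 nt, chromosome 18, 12756096 to 12756187) was retained at 81.3% ± 2.60 in round spermatids and 89.0% ± 3.35 in spermatocytes (SD, n = 4 each). Its stages did not overlap, which held for 4 of the 44 member events and 12.3% of all, but it missed the threshold (-0.98 in log2 odds, SE 0.31, limma adjusted p = 0.0534).

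None of the 5 lead events tested between stages was called. For each lead the libraries of its picking stage are part of this comparison, and their mean averages over the split used for choosing. A missed threshold therefore does not show that the stages are alike. Counted against the short form alone, the long Bscl2 form averaged 56.4% ± 20.2 in round spermatids and 78.2% ± 18.3 in spermatocytes (SD, n = 4 each), and limma gave -1.70 in log2 odds (SE 0.53, adjusted p = 0.05191). It passed the threshold with 1 read added, under the quasi-binomial test, with weights from each library's own reads, and without the first library of the second round spermatid group (-2.51 in log2 odds). The Ist1 intron averaged 41.2% ± 5.06 in round spermatids and 48.7% ± 16.0 in spermatocytes (limma adjusted p = 0.2701), and in spermatocytes its spread comes from the sample groups. The introns of Gsap and Adgrl1 and the Pex7 exon had adjusted p-values of 0.9666, 0.9813 and 0.9998 in the same limma fit.

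**Figure D3:**
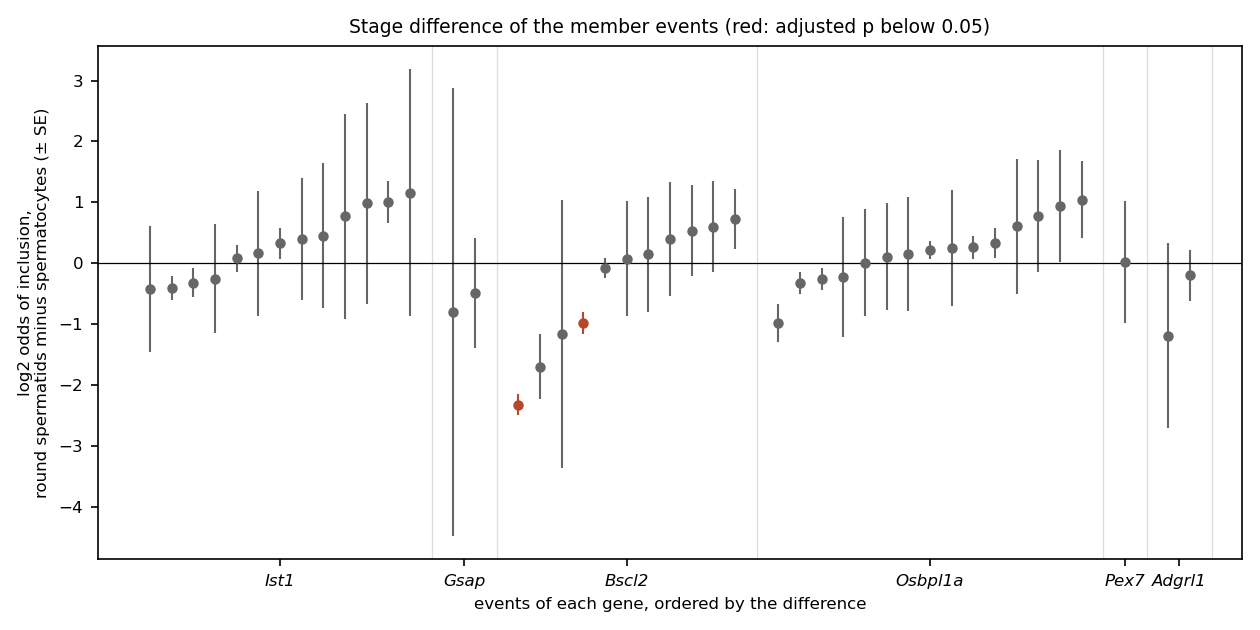
Difference in log2 odds of inclusion, round spermatids minus spermatocytes, with its standard error, for the 44 member events tested between stages, grouped by gene and ordered by size. The 2 red points, both introns of Bscl2, have a limma adjusted p under 0.05 and lie below 0.

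Event reads differed between stages for Gsap, Pex7 and Ist1. For each gene the event with the most reads was taken, and its reads in CPM stood in for expression, which was not otherwise measured here; in bulk libraries fewer cells of a type and less RNA per cell cannot be told apart. Gsap had 15.9, 14.8, 33.4 and 30.9 CPM in round spermatids, against 0.979, 0.860, 0.598 and 1.38 CPM in spermatocytes. By mean CPM it was 24.9-fold higher in round spermatids, with no overlap of stages. Limma gave 3.99 on the log2(CPM + 0.5) scale (SE 0.24, adjusted p = 2.42e-09).

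Pex7 went the other way. It had 1.0, 0.936, 0.481 and 0.391 CPM in round spermatids, against 13.7, 11.4, 7.58 and 5.72 CPM in spermatocytes. By mean CPM it was 13.6-fold lower in round spermatids. Limma gave -3.03 on the log2(CPM + 0.5) scale (SE 0.25, adjusted p = 4.884e-08), where the added 0.5 CPM makes the difference smaller. Ist1 had 65.0, 51.4, 57.3 and 51.3 CPM in round spermatids, against 135, 115, 187 and 158 CPM in spermatocytes. It was 2.65-fold lower by mean CPM (-1.38 on the same log2 scale, SE 0.13, limma adjusted p = 3.294e-07). For Gsap, Ist1 and Adgrl1 the most covered event counts reads inside the retained intron, and for Pex7 it is the lead cassette exon. Reads and inclusion are therefore not separate measures in these genes.

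Bscl2 averaged 509 ± 66.9 CPM in round spermatids and 569 ± 24.6 CPM in spermatocytes, Osbpl1a 107 ± 20.3 and 94.5 ± 6.65 CPM, and Adgrl1 4.98 ± 1.5 and 8.80 ± 4.86 CPM (SD, n = 4 each). These 3 did not pass the test, with limma adjusted p-values of 0.1703, 0.3404 and 0.0531. The 3 of 6 called compare with 75.0% of all genes called, 27.1% higher and 47.9% lower in round spermatids, so differing between stages is not particular to the members. The median gene lay at -0.39 (log2); relative to it Gsap lay at 4.38, Pex7 at -2.65 and Ist1 at -0.99. Under library-sum scaling 2486 genes were called higher and 4387 lower in round spermatids. Under median-ratio scaling the median was -0.03, 3362 genes were called higher and 3269 lower, Gsap, Pex7 and Ist1 kept their directions and calls, and Osbpl1a was also called (0.59 on the log2 scale, adjusted p = 0.001543). In the stage that the rule did not use, limma called none of the members' event reads between sample groups: adjusted p-values were 0.94, 0.73, 0.622 and 0.737 for Ist1, Bscl2, Pex7 and Adgrl1 in round spermatids, where 0.0546% of all genes were called, and 0.986 and 0.804 for Gsap and Osbpl1a in spermatocytes, where 4.08% were.

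**Figure D4:**
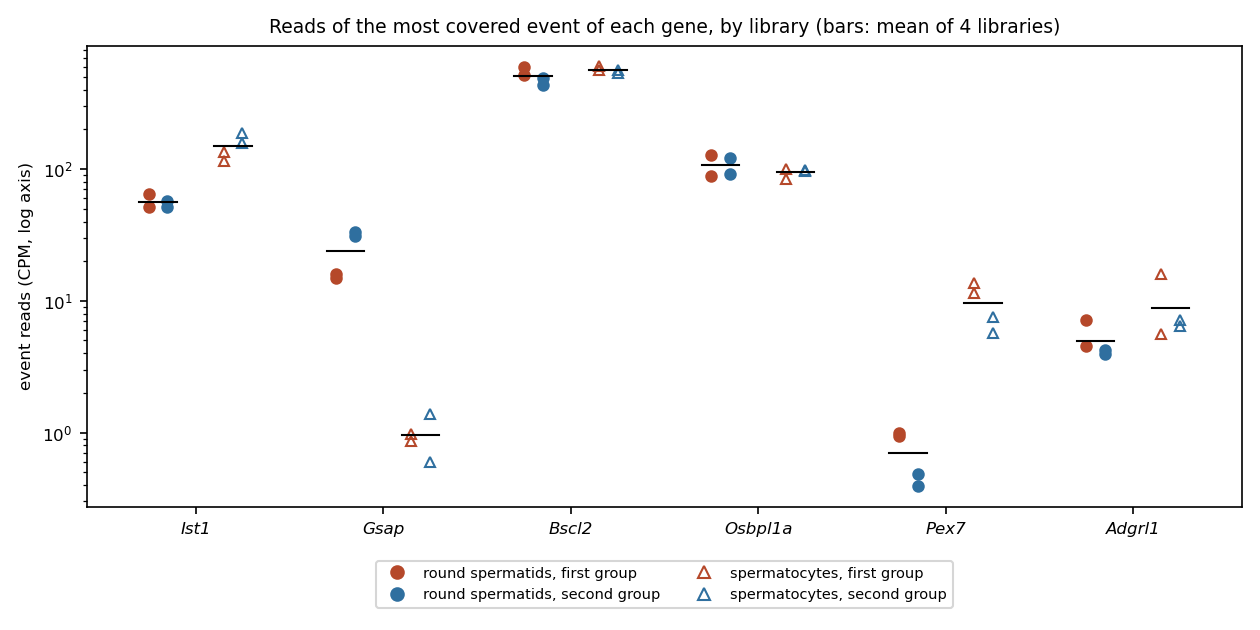
Event reads by gene and library in CPM (log axis, event with the most reads), round spermatids (filled circles) left of spermatocytes (open triangles), with the first sample group in red and the second in blue and bars at the mean of 4 libraries. Gsap lies higher and Pex7 and Ist1 lie lower in all round spermatid libraries than in any spermatocyte library.

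Genes that act with the members were counted between stages from lists of the pathways, members left out. Of all 8510 genes tested, 19.6% had a called event, 10.8% with one higher and 11.7% with one lower in round spermatids. The median event differed by 0.08 in log2 odds over all genes. Event reads of the lists are counts of called genes under library-sum scaling only. Under it 27.1% of all genes were called higher and 47.9% lower in round spermatids. Under median-ratio scaling 3362 of all genes were called higher and 3269 lower, so the balance of the list counts depends on the scaling.

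Among ESCRT genes 2 of 16 had a called event, both lower in round spermatids, with a list median of 0.03. An intron of Chmp2a, a filament subunit, was retained at 1.13% ± 0.131 in round spermatids and 3.15% ± 0.536 in spermatocytes (limma adjusted p = 0.0003732). Stam, an early ESCRT adaptor, had a 66-nt exon included at 1.43% ± 1.43 and 8.48% ± 6.31 in the same order of stages (limma adjusted p = 0.04446). Event reads were higher in round spermatids for 1 and lower for 9 of 16 genes.

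Among lipid droplet and triglyceride genes 2 of 16 had a called event, both higher in round spermatids, with a list median of 0.30. A 144-nt exon of Lpin1, a phosphatidate phosphatase, was included at 95.5% ± 5.86 in round spermatids and 59.8% ± 12.2 in spermatocytes (limma adjusted p = 0.04108). Faf2, which acts at the endoplasmic reticulum and lipid droplets, had a 139-nt exon included at 98.7% ± 1.10 and 94.3% ± 3.06 (limma adjusted p = 0.01537). Event reads were higher for 8 and lower for 4 of 16 genes.

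Among sterol transfer genes 4 of 17 had a called event, 2 with one higher and 2 with one lower, and the median was 0.10. An intron of Gramd1a, a sterol carrier at contact sites, was retained at 19.9% ± 7.04 in round spermatids and 56.5% ± 12.3 in spermatocytes (limma adjusted p = 0.0003282). Osbp, the founding oxysterol-binding protein, had a 121-nt exon included at 98.5% ± 1.08 and 94.1% ± 1.48 (limma adjusted p = 0.002261). Event reads were higher for 6 and lower for 10 of 18 genes.

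Among peroxisome genes 6 of 17 had a called event, 1 with one higher and 5 with one lower, and the median was -0.15. A 116-nt exon of Pex11a, a factor of peroxisome division, was included at 4.91% ± 1.92 in round spermatids and 26.0% ± 7.54 in spermatocytes (limma adjusted p = 4.044e-06). A 2923-nt intron of Pex14, part of the docking complex, was retained at 0.515% ± 0.205 and 1.94% ± 0.665 (limma adjusted p = 2.241e-05). Pex16, a membrane biogenesis factor, had a 134-nt exon included at 98.7% ± 0.951 and 92.9% ± 1.2 (limma adjusted p = 0.001096). Event reads were higher for 5 and lower for 9 of 17 genes.

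Among gamma-secretase genes and substrates 2 of 8 had a called event, an intron of Aph1a, a subunit, at 76.3% ± 30.6 in round spermatids and 21.1% ± 13.8 in spermatocytes (limma adjusted p = 0.01635), and an intron of Adam17, a sheddase, at 10.1% ± 7.69 and 30.9% ± 3.79 (limma adjusted p = 0.005445). Among adhesion receptors and latrophilin ligands 0 of 8 had one. Event reads were higher for 3 and lower for 4 of 9 genes of the first list, and higher for 4 and lower for 3 of 15 genes of the second. Between sample groups no gene of the 6 lists had a called event in either stage, where over all genes only 10 of 9312 in round spermatids and 2 of 9857 in spermatocytes had one.

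For the 5 lead events tested between stages, the events of the same kind in other genes with the closest values over the 8 libraries were looked up. The libraries of the picking stage are among the 8. A like split between sample groups is therefore part of the match and not a further result. The Ist1 intron was closest to introns of Ccl27a and Rpl3, which lay on average 5.24 and 5.87 points away. Retention of the Ccl27a intron was 32.4% and 41.0% in the first spermatocyte group, against 59.0% and 58.4% in the second. The Adgrl1 intron was closest to that of Ist1, at 8.83 points, and then to one of Tgfbr3l. The Gsap intron was nearest to introns of Zfp330 and Ankrd24 (10.7 and 12 points), the Bscl2 site to sites of Med12 and Rhno1 (10.2 and 11.2 points) and the Pex7 exon to exons of Mettl25 and Camk2g (12.2 and 12.3 points).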

How the data were processed

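The values come from 10 deposited tables, 1 for each stage and each of 5 event types. STAR and the build mm10 are named in the submitters' processing notes; no version and no setting of the event caller is given there. An event is 1 line, per the file headers, with the read counts of both forms for 2 sample groups (the 2 libraries of a group joined by a comma), form lengths, inclusion levels as fractions, the difference of the levels (a score from -1 to 1) and the authors' p-value and FDR. Inclusion recomputed from reads and lengths lay within 0.0005 of the deposited fractions. Overlapping events share reads, so event reads are not library totals.

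Events with a mean of at least 10 reads per library and a read of each form were tested. Length-normalised log2 odds, with an average of 0.5 reads added to each form, went into limma 3.58.1 (R 4.3.3). Weights were inverse counting variances from shares pooled over the libraries of a group, with the prior spread following the reads of the rarer form. Benjamini-Hochberg adjustment ran over all tested events, and an adjusted p below 0.05 was called. Weights from each library's own reads were also run on these tables, in several forms, and called more events (328 in spermatocytes, 63 in round spermatids and 4294 between stages, against 2, 13 and 2784). They were set aside on simulated data, a choice that followed the first look at the counts. The simulation at hand covers the pooled weights and the quasi-binomial test, not weights from each library's own reads. Its spread between libraries was set and not estimated from these libraries. The fit kept may have less power. Event reads were tested as log2(CPM + 0.5). The 2 libraries of each group differed by more than sampling noise and were counted as separate libraries, which does not show that they came from separate animals.

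The members, lists and tests were chosen with earlier results of these data known. Full values are given for the lead event of each member, for member events called between stages, for the 2 closest events of each lead and for at most 3 called genes of a list by smallest p; the intron of Osbpl1a, the exon inside the Ist1 intron and the alternative Bscl2 and Osbpl1a events were added after their values were seen. Gene positions are those of RefSeq (GRCm38.p6), the same assembly as mm10. Plots were drawn with matplotlib 3.10.9.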

Additional observations from a re-analysis of the deposited data

How the results depend on the processing

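No paired analysis was possible because the headers do not tie the values within a cell to the replicate numbers of the labels. The 2 Bscl2 introns stayed lower in round spermatids in every setting run, and the 8847734 intron lost its call only in the second sample groups alone. The number of member events called between stages, 2, was 4 with 1 read added, 5 under the quasi-binomial test, 4 with weights from each library's own reads (chosen after seeing the data) and 1 in the second sample groups alone, and 2 to 3 when each library was left out. In the stage the rule did not use, 0 events became 0 to 3 when each library was left out: 1 without the first library of the first round spermatid group, and 3 and 2 without the first and the second library of the first spermatocyte group. Those fits rest on 1 residual degree of freedom in a stage, the lone library is assumed to vary like the other group, and over the whole tables they called 5477 of 44392, 11172 of 53703 and 11096 of 53551 events. The number of genes called by event reads, 3, was 5 with reads summed over events, 4 under median-ratio scaling, 4 among genes of at least 1 CPM and 3 to 4 when each library was left out.

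Stage differences (log2 odds) that changed sign missed the threshold in each case. For Pex7 they were -0.0087 with 1 read added, -0.25 without weights, -0.21 under the quasi-binomial test, -0.54 with own-read weights, -1.19 in the second sample groups alone, and, leaving out a library (range -1.08 to 0.64), -1.08 and -0.07 (second library of the first and of the second round spermatid group), -0.0093 (second library of the first spermatocyte group) and -0.27 (first library of the second). For Gsap they were 0.22 under the quasi-binomial test, 0.31 with own-read weights and 0.34 without the first library of the second spermatocyte group (range over libraries -2.52 to 0.34). In the first sample groups alone Ist1 was 0.30 and Adgrl1 1.43, and Adgrl1 was 0.036 without the second library of the second round spermatid group (range -0.48 to 0.036). In the first groups mean retention was 39.5% in round spermatids and 34.8% in spermatocytes for Ist1, and 49.0% and 28.2% for Adgrl1. These spermatocyte means are the lower side of the split used for picking. Between sample groups of round spermatids, Ist1 was 0.13 (range -0.50 to 0.13) and Bscl2 0.30 (range -2.40 to 0.30) without the first library of the second group, and Adgrl1 was -0.36 without the second (range -0.36 to 0.56). The event reads of Bscl2 were 0.26 under median-ratio scaling. The cause was not tested. Gsap in spermatocytes, Pex7 in round spermatids and the short form of Bscl2 rest on few reads.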
